A study of Macaca mulatta with 20 samples.

Results

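RNA labelled thymus was set against RNA labelled testis from rhesus macaques on 2 types of Affymetrix expression array. The comparison used 8 of the 20 samples of the series, chosen by their source label: 2 thymus and 2 testis arrays of the rhesus type and 2 of each of the human type. The rhesus arrays carry probes designed from macaque transcripts and the human arrays carry probes designed from human ones, and both were hybridized with macaque RNA. The other 12 samples came from cerebral cortex, pancreas and immortalized fibroblasts. Thymus and testis RNA was untreated as far as the labels tell, and no age, strain or number of animals was given for either. All samples shared the same preparation, with biotin-labelled cRNA made from 5 ug of total RNA that had been extracted with Trizol. The labels call the arrays technical replicates, so each mean below is of 2 arrays, and each standard error (SE) and p-value measures the spread between arrays and compares RNA preparations, not animals. Levels are log2 expression values, so a difference of 1 is a doubling, and every difference is thymus minus testis. A gene was read by its brightest probe set with a single gene symbol, which gave 14132 genes on rhesus arrays, 19775 on human arrays and 11956 on both. A gene was called different when its limma p-value, adjusted over all probe sets of the array type, was below 0.05 and its difference was at least 1 in size.

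The thymus is the organ in which T cells mature. Immature T cells, called thymocytes, cut and rejoin their antigen receptor genes with the RAG recombinase, divide in large numbers, and are then selected on self peptides shown by thymic epithelium and dendritic cells. The testis holds germ cells inside tubules lined by nursing Sertoli cells, ringed by contractile peritubular cells, with steroid-making Leydig cells between the tubules. Its germ cells divide by mitosis as spermatogonia, pass through meiosis and are then rebuilt into sperm with protamine-packed DNA. Both organs therefore hold dividing cells, and the questions put to the data were which lymphoid and gonadal genes separated them and which genes of the cell division machinery differed.

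Probe sets for 27 bacterial control transcripts that were not spiked in read between 2.10 and 3.06 in thymus and between 2.08 and 2.85 in testis on rhesus arrays, and between 2.13 and 3.09 and between 2.12 and 3.04 on human arrays. A level in this range is called the floor here, and a difference against it is a difference from background rather than an exact fold. The 2 arrays of a pair correlated at 0.995 to 0.997 over probe sets, and their typical SD was 0.137 to 0.157. The actin control, whose 3' probe sets exceed its 5' ones by more as RNA is shorter, gave a 3' excess of 2.07 in thymus and 2.66 in testis on rhesus arrays and 2.03 and 2.48 on human arrays. Its part in the differences was not tested.

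The labels were checked against defining genes before the comparison was read. Thymus RNA read far above the other sources for DNTT, RAG2, CD8B and PTCRA, and testis RNA for the Sertoli cell genes INHA and GSTA3. The testis RNA also held some thymocyte transcripts above their level in cortex, fibroblasts and pancreas. On rhesus arrays DNTT, the enzyme that adds bases at antigen receptor joins, read 7.88 in testis against 3.18 to 3.67 in those 3 sources and 12.98 in thymus. CD1B, a lipid-presenting molecule of cortical thymocytes, read 8.45 in testis against 3.19 to 3.99, and CD8A, a co-receptor chain, read 7.40 against 4.02 to 4.95. On human arrays DNTT read 5.34 in testis against 2.83 to 2.91, and RAG1, a recombinase subunit, read 5.89 against 3.59 to 3.84. Testis RNA thus stood between thymus and the remaining sources for these genes on the array types named.

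The pattern did not hold for every thymocyte gene. On rhesus arrays UBASH3A, a T cell phosphatase, read 2.15 in testis and 2.10 to 2.20 in the 3 other sources, and PTCRA, the pre-T cell receptor chain, read 2.86 against 2.48 to 2.58. On human arrays CD8A read 3.05 in testis against 2.56 to 3.11, and RAG2 read 3.29 against 3.27 to 3.53. Of the antigen receptor complex and co-receptor genes, 5 of 12 on rhesus arrays were called higher in testis than in the mean of those 3 sources. On human arrays 1 of 20 was. Over the whole lymphoid list, 27 of 65 measured genes were called higher in testis than in the mean of those 3 sources on rhesus arrays, where 18.8% of all genes were, and 19 of 83 on human arrays, where 10.5% were. For Sertoli cell genes limma called 0 of 15 on rhesus and 0 of 21 on human arrays higher in thymus than in those sources. Also 0 passed an unadjusted p below 0.05, and 7 and 11 were called lower. Of the whole gonadal list, 9 of 93 were called higher in thymus and 18 lower on rhesus arrays. On human arrays these were 4 and 22 of 127, while 19.0% and 11.1% of all genes were higher on the 2 array types. Some Sertoli cell genes were high in those sources too (TJP1 at 9.14 to 9.87 on rhesus arrays), which limits what these counts can show. This comparison with the other 3 sources was added after the levels had been seen, and the source of the thymocyte transcripts in the testis RNA was not tested. Every lymphoid difference below is measured against the testis level, which for some genes includes these transcripts.

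**Figure D1:**
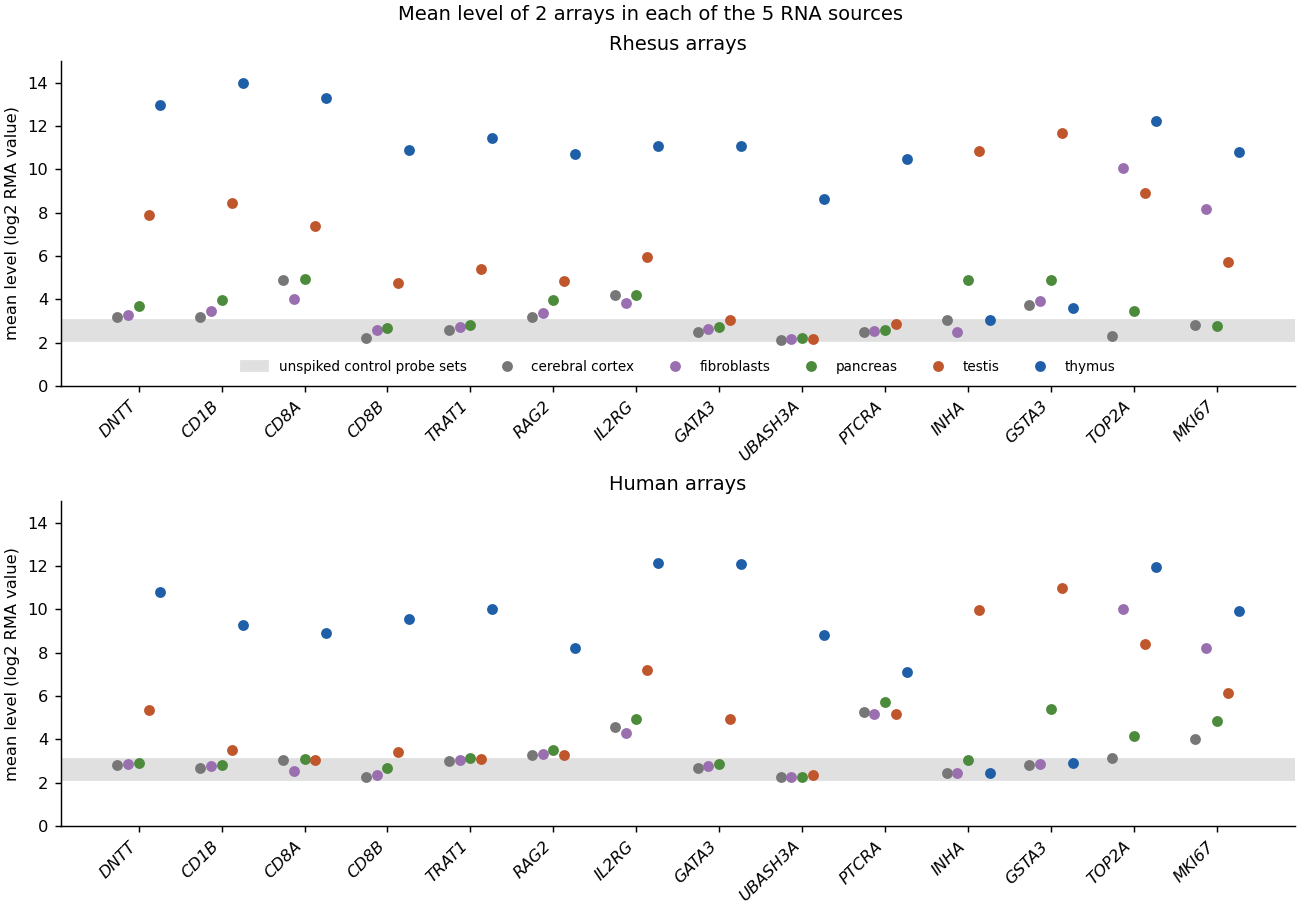
Mean log2 level of 14 genes (x axis) in each of the 5 RNA sources, rhesus arrays above and human arrays below, each point a mean of 2 arrays and the grey band the range of unspiked control probe sets. DNTT reads 7.88 in testis on rhesus arrays, between thymus (12.98) and the remaining sources (3.18 to 3.67), while UBASH3A lies at the floor in all sources but thymus.

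On rhesus arrays 1824 of 14132 genes (12.9%) were called higher in thymus and 2354 (16.7%) higher in testis. On human arrays these counts were 1372 of 19775 (6.94%) and 1745 (8.82%). Of the 11956 genes on both array types, 817 (6.83%) were called higher in thymus by both and 1063 (8.89%) higher in testis by both, whereas 43 (0.360%) were called in opposite directions. Over probe sets, 10.3% were called higher in thymus and 11.4% higher in testis on rhesus arrays, and 5.02% and 5.52% on human arrays. The differences of the 2 array types correlated across these genes with a Pearson's r of 0.748 and a Spearman's rho of 0.744. This is a description only, since genes are not independent and both array types measured the same RNA. More of the genes higher in testis than of those higher in thymus lay near the floor in the other organ. The thymus level was within or below the floor range for 525 of the 2354 rhesus calls for testis (22.3%), and the testis level for 199 of the 1824 calls for thymus (10.9%). Where a list below has 0 calls in a direction by limma, 0 to 2 of its genes passed an unadjusted p below 0.05 in that direction, and an ordinary analysis of variance contrast and a limma fit with trend and robust moderation also called 0. The lists and the pairs of related genes below were chosen with earlier results of these data known. Their shares beside those of all genes are therefore a description and not a test. Bulk RNA does not tell fewer cells of a type from less RNA per cell, and this holds for each list below.

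**Figure D2:**
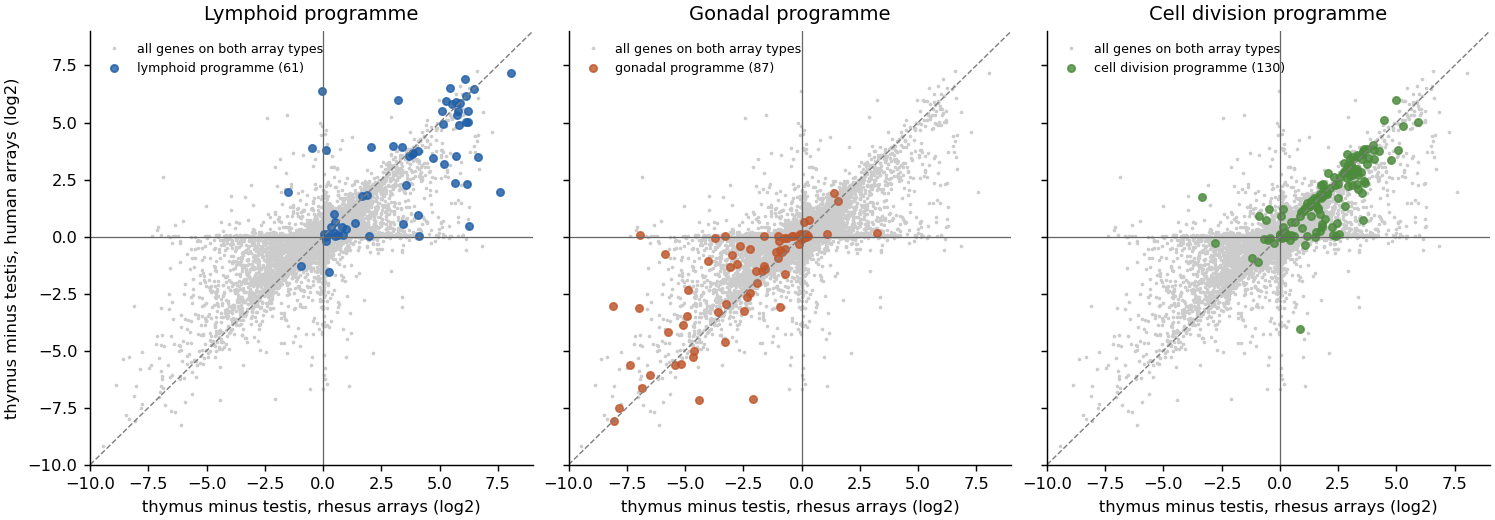
Thymus minus testis difference (log2) of each gene on rhesus arrays (x axis) and the human arrays (y axis), with all 11956 shared genes in grey, the genes of 1 programme coloured in each panel and the dashed line marking equal values. Lymphoid and cell division genes lie mostly to the upper right and gonadal genes to the lower left, with a cluster of genes near 0 in each panel.

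Of the lymphoid programme, 5 lists on antigen receptors, their recombination, signalling, T lineage factors and chemokines, 44 of 65 measured genes (67.7%, against 12.9% of all genes) were higher in thymus and 1 higher in testis on rhesus arrays. On human arrays 55 of 83 (66.3%, against 6.94%) were higher in thymus and 2 higher in testis. Of the 61 genes measured on both, 35 were higher in thymus on both and 0 higher in testis on both. The median difference of the programme was 3.68 on rhesus and 3.51 on human arrays, while the median over all genes tested was 0.04 and 0.02. The median SE of these differences was 0.146 and 0.144.

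GATA3, a zinc finger factor that commits cells to the T lineage, had the largest thymus difference of all genes called on both array types, ranked by the smaller of its 2 values. It read 11.08 and 11.12 on the rhesus thymus arrays and 2.77 and 3.34 on the rhesus testis arrays. On human arrays it read 12.13 and 12.08 in thymus and 4.70 and 5.20 in testis. The groups were well apart, and the differences were 8.05 (SE 0.166, limma adjusted p = 2.19e-07) and 7.15 (SE 0.150, limma adjusted p = 1.17e-06). The rhesus testis value was near the floor. Both rhesus probe sets of GATA3 were called higher in thymus, and 1 of its 3 human ones was. Other T lineage factors differed in the same direction on both array types: BCL11B, which locks in T cell identity, by 5.77 and 5.51, MYB, a factor of proliferating progenitors, by 5.75 and 5.31, IKZF1, the zinc finger factor Ikaros, by 5.71 and 3.54, and TOX, needed for CD4 T cells, by 3.80 and 3.63. Of this list 11 of 16 were called higher in thymus on rhesus and 12 of 17 on human arrays. TCF12, an E protein partner, went against its list on rhesus arrays, with 7.77 and 7.67 in thymus and 9.16 and 9.27 in testis, a difference of -1.49. Both of its rhesus probe sets read that way, at -1.49 and -1.85, but 3 of its 4 human probe sets were called higher in thymus, and the brightest differed by 1.96. RUNX3, ZBTB7B and FOXP3, factors of mature T cell subsets, were not called by their brightest probe sets, with values from 0.02 to 0.49. Of the 3 human probe sets of RUNX3, however, 1 was called higher in thymus.

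Among the receptor complex and co-receptor genes, 10 of 12 were higher in thymus on rhesus arrays and 15 of 20 on human arrays, with 0 higher in testis. CD8B, a chain of the CD8 co-receptor, read 10.94 and 10.81 in thymus and 4.95 and 4.57 in testis on rhesus arrays. It read 9.51 and 9.57 against 3.49 and 3.31 on human arrays. The differences were 6.12 (SE 0.155) and 6.14 (SE 0.147), and their own difference of 0.03 (SE 0.221) was not called. CD8A differed by 5.88 and 5.87, and CD1B by 5.52 and 5.80. PTCRA differed by 7.59 on the rhesus but by 1.97 on human arrays, where its testis arrays read 5.18 and 5.13, and this gap between array types was called (-5.63, SE 0.226). CD4 likewise differed by 6.18 and 2.32, with a called gap of -3.86 (SE 0.173). The CD3 chains were measured on human arrays alone, where CD3D differed by 4.60, CD3G by 5.97 and CD247, the zeta chain, by 6.59, and CD3E, at 0.91, was not called. CD1E showed no difference by its brightest rhesus probe set (-0.03, with 13.00 in thymus and 13.03 in testis), while its other rhesus probe sets differed by 6.47 and 6.03.

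Of the genes of antigen receptor recombination, 3 of 6 were higher in thymus on rhesus arrays and 4 of 7 on human arrays. RAG2, the second recombinase subunit, read 10.76 and 10.63 in thymus and 4.80 and 4.89 in testis on rhesus arrays, and 8.37 and 8.03 against 3.28 and 3.30 on human arrays. Its differences were 5.85 (SE 0.0667) and 4.91 (SE 0.110). DNTT read 13.00 and 12.96 in thymus and 7.75 and 8.0 in testis on rhesus arrays, a difference of 5.10 (SE 0.135, limma adjusted p = 6.01e-07) or 34.4-fold. On human arrays it differed by 5.49 (SE 0.0321), or 44.8-fold. RAG1, on human arrays alone, differed by 4.83 (SE 0.215). The end-joining factors, which all cells use to repair DNA breaks, were divided. XRCC4 (0.64 and 0.06), NHEJ1 (-0.02, rhesus alone) and PRKDC (0.45 and 0.97) were not called by their brightest probe sets, though 1 of 3 human PRKDC probe sets was called higher in thymus at 1.06. DCLRE1C, the nuclease Artemis, was called higher in thymus at 1.35 by its brightest rhesus probe set, while the other 2 were called higher in testis at -2.22 and -3.58. On human arrays it read 0.61, uncalled, and 1 of its other 4 probe sets was called higher in thymus at 3.06. LIG4, the DNA ligase of this pathway, differed by 3.97 on human arrays.

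**Figure D3:**
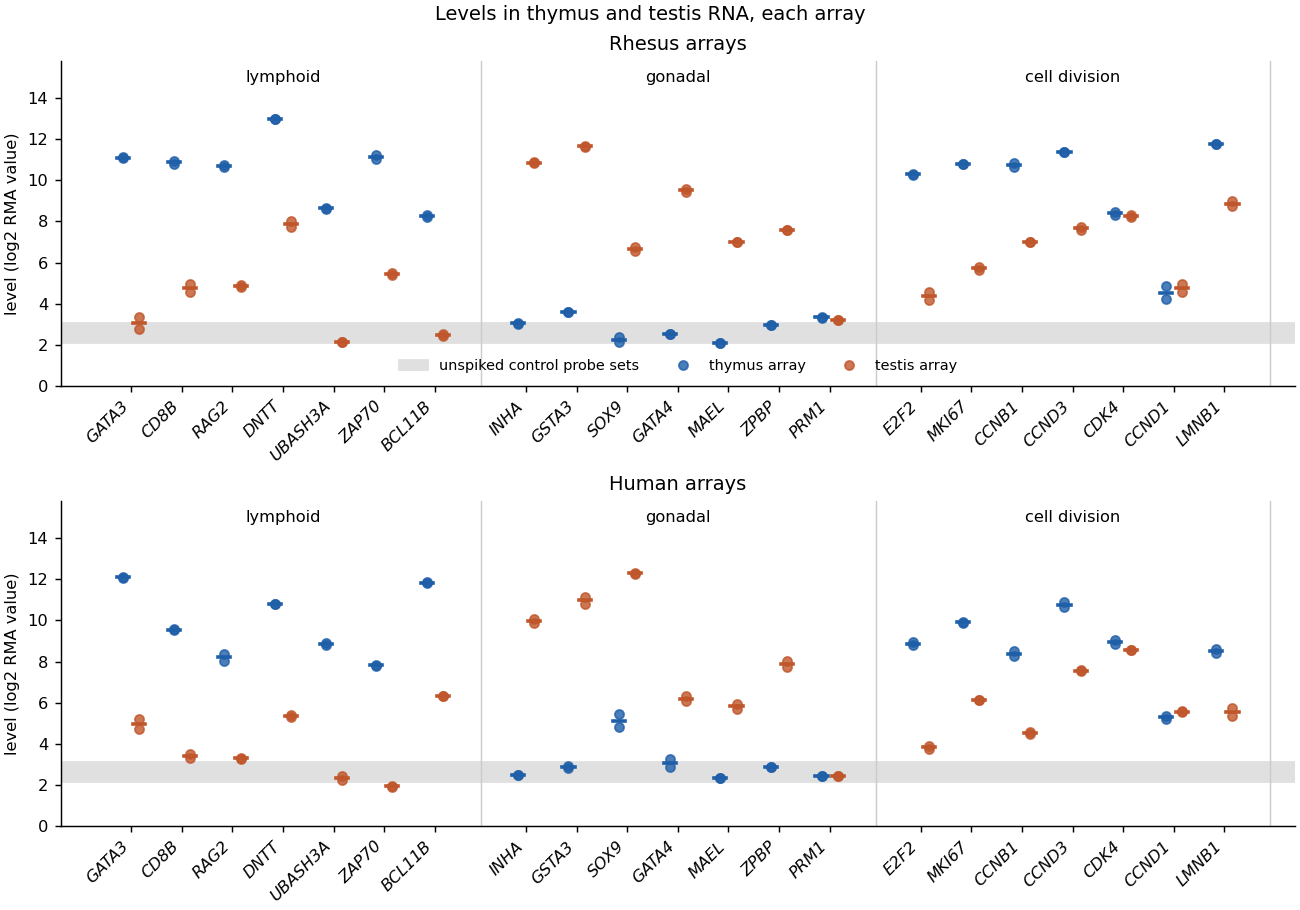
Log2 level of 21 genes in each thymus and testis array, rhesus arrays above and human arrays below, with a line at each mean of 2 arrays and the grey band the range of unspiked control probe sets. Points of a pair nearly overlap, lymphoid genes lie higher in thymus, gonadal genes other than PRM1 higher in testis, and CDK4 and CCND1 lie close together in both organs.

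Of the T cell receptor signalling genes, 12 of 16 were higher in thymus on rhesus and 17 of 20 on human arrays, and 0 higher in testis. UBASH3A read 8.64 and 8.62 in thymus on rhesus arrays and 2.16 and 2.14 in testis, at the floor, and the human arrays read 8.79 and 8.88 against 2.43 and 2.26. The differences of 6.48 and 6.49 had SEs of 0.0301 and 0.0619. ZAP70, the kinase that docks on the activated receptor, differed by 5.70 and 5.88, the adaptor TRAT1 by 6.08 and 6.90, the adaptor LCP2 by 5.46 and 6.50, and LCK, the first kinase of the pathway, by 6.98 on human arrays. The pathway members MALT1 (0.11 and -0.20), NFATC1 (0.23 and 0.10) and TXK (0.52 and 0.03) were not called by their brightest probe sets. Of the 4 rhesus probe sets of NFATC1, however, 1 was called higher in thymus. LAT, a membrane scaffold, differed by 3.88 on human arrays and by -0.46 by its brightest rhesus probe set, which was not called, and 1 of its 4 rhesus probe sets was called, at 5.21.

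The chemokine and cytokine list was more mixed. On rhesus arrays 8 of 15 were higher in thymus (53.3%, against 12.9% of all genes) and 0 in testis. On human arrays 7 of 19 were higher in thymus (36.8%, against 6.94%) and 2 in testis (10.5%, against 8.82%). CXCR4, a receptor that guides progenitors, differed by 5.27 and 5.96, IL2RG, the shared chain of several cytokine receptors, by 5.13 and 4.95, and LTB, a lymphoid tissue organizer, by 6.21 and 5.51. CCL19, a ligand of the medulla, differed by 6.63 and 3.51 and its receptor CCR7 by 2.05 and 3.94. The stromal chemokine CXCL12 was the reverse on human arrays, at 10.10 and 10.08 in thymus and 11.34 and 11.39 in testis (-1.27, SE 0.0597), and was not called on rhesus arrays at -0.96. CCL21 was also called higher in testis on human arrays, at -1.57, but its 2 rhesus probe sets divided, with 0.27 by the brightest, near the floor in both organs, and -1.76, called higher in testis, by the other. IL7, a thymic stromal factor, was not called, at 0.83 and 0.41. CCL25, a chemokine of thymic epithelium, was not called by its brightest probe sets (0.86 and 0.06), but its other 3 rhesus probe sets were called higher in thymus, at 1.06 to 4.02.

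Other cells of a lymphoid organ were seen as well. On rhesus arrays 5 of 11 thymic epithelium genes were higher in thymus (45.5%, against 12.9% of all genes) and 3 in testis (27.3%, against 16.7%). On human arrays 4 of 13 were higher in thymus (30.8%, against 6.94%) and 3 in testis (23.1%, against 8.82%). Those higher in thymus included PRSS16, a serine protease of cortical epithelium (5.98 and 6.25), PAX1 (6.30 and 3.70), CTSV, a lysosomal protease (3.22 and 2.98), PSMB11, the thymus proteasome subunit (4.32, rhesus arrays), and the keratin KRT14 (5.64, human arrays). The general epithelial genes KRT8 (-3.19 and -1.75), KRT18 (-2.29 and -1.49) and EPCAM (-3.37 and -3.46) were instead higher in testis on both array types. FOXN1, the master factor of thymic epithelium, was not called, at 0.14 and 0.90, and neither were PAX9 (0.86) and KRT5 (0.24) on human arrays. PAX9 was called at 1.46 without thymus replicate 4. AIRE, the regulator of self antigen display, was called at 1.24 on rhesus arrays and read 0.28 on human arrays, uncalled. Of the B cell genes, 5 of 9 were higher in thymus and 2 (22.2%, against 16.7% of all genes) higher in testis on rhesus arrays, and 3 and 0 of 12 on human arrays. MS4A1, which encodes CD20, led those higher in thymus at 5.68 and 3.43, while BANK1 (-1.55) and CD22 (-1.34), of B cell signalling, were the rhesus genes higher in testis. Without either thymus array or testis replicate 1 that count of 2 was 1. Of the macrophage and dendritic cell genes 8 of 13 and 6 of 14 were higher in thymus (61.5% and 42.9%, against 12.9% and 6.94%). They were led by LYZ, lysozyme, at 4.36 and 3.94. On human arrays 0 were higher in testis, and on rhesus arrays 1 was (7.69%, against 16.7% of all genes). That 1 was CD68, a macrophage lysosome protein, at -2.48, and its other rhesus probe set was called higher in thymus. The granzymes did not move together. GZMB differed by 4.59 and 1.81, while all 4 rhesus probe sets of GZMA were called higher in testis, with -4.45 by the brightest, and its human probe set read 2.56 and 2.48, at the floor. GZMK read -6.34 on rhesus arrays, where its level in cortex was 10.71, and the human probe set was at the floor in all sources.

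Antigen presentation genes were higher in thymus or not called. Of the class II list 6 of 9 were higher in thymus on rhesus and 9 of 16 on human arrays, and of the class I list 7 of 10 and 6 of 12. The class II alpha chain of the DR molecule differed by 2.92 as MAMU-DRA on rhesus arrays (12.85 and 12.86 in thymus, 9.97 and 9.91 in testis) and by 2.66 as HLA-DRA on human arrays. Transcripts of related class II genes could share these probes. PSMB8, the immunoproteasome subunit that trims peptides for class I molecules, read 10.04 and 9.98 in thymus and 6.38 and 6.52 in testis on rhesus arrays, a difference of 3.56 (SE 0.192) or 11.8-fold, and 3.54 (SE 0.127) on human arrays. PSMB5, the subunit that it replaces, differed by -0.11 and 0.00. B2M, the light chain of every class I molecule, differed by 0.13 and 0.23 and CIITA, the class II master regulator, by 0.04 and 0.02, and neither was called.

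Of the gonadal programme, 43 of 93 measured genes (46.2%, against 16.7% of all genes) were higher in testis and 4 higher in thymus on rhesus arrays. On human arrays the counts were 44 (34.6%, against 8.82%) and 2 of 127. Of the 87 genes on both, 29 were higher in testis on both and 2 higher in thymus on both. The median difference was -0.93 and -0.06, so a large share of the programme was near 0, and the counts differed from list to list.

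Most Sertoli cell genes were higher in testis. Of 15 measured on rhesus arrays 13 were higher in testis, and of 21 on human arrays 18, with 0 higher in thymus. AMH, the hormone by which Sertoli cells suppress the Mullerian duct, read 11.67 and 11.49 in testis on rhesus arrays and 2.07 on both thymus arrays, a difference of -9.51 (SE 0.0581, limma adjusted p = 3.20e-09). It was the largest difference of any gene on rhesus arrays and was not measured by a single-symbol probe set on human arrays. INHA, the inhibin alpha chain, read 10.83 and 10.89 in testis and 3.01 and 3.07 in thymus on rhesus arrays, and 9.85 and 10.07 against 2.46 on both human thymus arrays. Its differences were -7.82 (SE 0.0865) and -7.50 (SE 0.253). The thymus level lay at the floor for both genes. GSTA3, a glutathione transferase, differed by -8.07 and -8.09, the factor GATA6 by -6.86 and -6.64, and TJP1, a tight junction protein, by -5.43 and -5.64. SOX9, the sex-determining factor of Sertoli cells, differed by -4.42 on rhesus and -7.18 on human arrays, and WT1, another gonadal factor, by -8.10 and -3.06. Both gaps between array types were called, at -2.76 (SE 0.245) and 5.04 (SE 0.202). FSHR, the receptor for follicle stimulating hormone, read 8.20 and 8.09 in testis and 2.16 and 2.15 in thymus on human arrays. FST, an activin antagonist, was not called (-0.73 and -0.56).

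On rhesus arrays 5 of 11 steroid hormone and Leydig cell genes were higher in testis (45.5%, against 16.7% of all genes). Another 2 were higher in thymus (18.2%, against 12.9%). On human arrays these counts were 4 (22.2%, against 8.82%) and 2 (11.1%, against 6.94%) of 18. The human count for testis was 7 without testis replicate 4. Those higher in testis included STAR, which feeds cholesterol into mitochondria, at -4.87 and -2.35, DLK1, of immature Leydig cells, at -5.73 and -4.19, and INSL3, the Leydig cell peptide, at -7.24 (SE 0.0239) on human arrays, where it read 9.78 and 9.84 in testis and 2.56 and 2.59 in thymus. CYP17A1, the enzyme at the branch to androgens, read 9.60 and 9.67 in testis and 2.71 and 2.67 in thymus on rhesus arrays (-6.95). Its brightest human probe set differed by 0.05, but the other human probe set read 8.02 in testis and 2.19 in thymus, a difference of -5.83. POR and CYB5A, electron donors of many cytochromes P450, went against the list, with POR at 1.56 and 1.55 and CYB5A at 1.39 and 1.89. LHCGR, the luteinizing hormone receptor of Leydig cells, differed by 0.01 on human arrays and was not called. NR5A1, the factor that switches on steroid enzymes, was called on neither type (-1.0 and -0.93), and HSD17B3, of the last step to testosterone, was not called on human arrays (-0.88). HSD3B2, an enzyme of the same pathway, was called on rhesus arrays at -5.85 and read -0.78 on human arrays, uncalled. The human differences of these 3 were called without testis replicate 4, at -1.01 to -1.13, and the rhesus difference of NR5A1 without testis replicate 1, at -1.68.

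Germ cell genes were followed from stem cells to sperm. Of the spermatogonia and early germ cell genes 10 of 18 (55.6%, against 16.7% of all genes) were higher in testis on rhesus arrays. On human arrays 8 of 20 (40%, against 8.82%) were, and 0 were higher in thymus on either type. MAEL, a guard against transposons, read 7.01 and 7.0 in testis and 2.09 on both thymus arrays of the rhesus type (-4.92, SE 0.0955), and 5.71 and 5.93 against 2.35 on the human type (-3.48, SE 0.0682). ID4, a spermatogonial stem cell factor, differed by -4.66 and -5.29, PIWIL2, a small RNA partner, by -3.27 and -4.60, the stem cell factor receptor KIT by -1.57 and -1.42, and DDX4, the germ cell helicase, by -4.71 on human arrays. DAZL, an RNA-binding protein of germ cells, differed by -3.71 on rhesus arrays and by -0.05 on human arrays, where all 4 arrays lay between 2.77 and 2.97.

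Meiosis genes were called less widely. On rhesus arrays 7 of 20 were higher in testis (35%, against 16.7% of all genes) and 1 in thymus (5%, against 12.9%). On human arrays 5 of 26 were higher in testis (19.2%, against 8.82%) and 0 in thymus. The pairing axis of meiotic chromosomes was present at modest levels. SYCP3, of its lateral element, read 5.84 and 5.75 in testis and 3.42 and 3.52 in thymus on rhesus arrays (-2.32, SE 0.0793), and 5.74 and 6.30 against 3.36 and 3.37 on human arrays (-2.65, SE 0.194). SYCP1, of its cross-bars, differed by -2.23 and -2.47, TEX12, of its centre, by -2.46 and -3.27, and the meiotic cohesin STAG3 by -1.97 and -1.5. Genes of meiotic recombination were divided. SPO11, which cuts the DNA, read -0.06 and 0.03 and DMC1, which pairs the strands, 0.26 and 0.04, and neither was called. MEI1, needed for the cuts, was called at -3.30 and MLH3, of crossover formation, at -1.08 on rhesus arrays, while on human arrays they read 0.01 and -0.68, uncalled. The MEI1 call rested on its brightest probe set, since the other 3 were at the floor in both organs. TEX15, of meiotic repair, was called at -2.17 on human arrays. MYBL1, a meiotic MYB factor, was higher in thymus on rhesus arrays at 1.08. On human arrays its brightest probe set read 0.13, but another of its 3 was called higher in thymus at 1.24. The rhesus call was lost, at 0.91, without testis replicate 2.

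Of the 20 spermatid and sperm genes measured on rhesus arrays 1 (5%, against 16.7% of all genes) was higher in testis and 1 (5%, against 12.9%) higher in thymus. Of 30 on human arrays 2 (6.67%, against 8.82%) were higher in testis and 0 in thymus, and the count of 2 was 1 without any 1 of the 4 arrays. PRM1, the protamine that packs sperm DNA, read 3.20 and 3.22 in testis and 3.32 and 3.36 in thymus on rhesus arrays, and 2.43 and 2.44 on all human arrays. PRM2, TNP1 and TNP2, on human arrays, differed by 0.01 to 0.03, and ODF1, ACR and SPAM1, of the sperm tail and acrosome, by 0.01 to 0.11. The defining late markers were thus at or near the floor in the RNA labelled testis. ZPBP, a protein of the acrosome, was the exception, at 7.57 and 7.58 in testis and 2.97 in both thymus arrays of the rhesus type (-4.60, SE 0.0513) and -5.01 (SE 0.164) on the human type. CABYR, of the sperm tail sheath, was called on human arrays alone at -1.23 (5.27 and 5.22 in testis, 3.98 and 4.05 in thymus), and the call was lost without any 1 of the 4 arrays, with limma adjusted p from 0.111 to 0.132. ODF2, a tail and centrosome protein, was the member higher in thymus, at 3.23 on rhesus arrays and, on human arrays, at 0.15 by its brightest probe set, uncalled, and 2.18 by the other, called.

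Peritubular and smooth muscle genes were higher in testis in 7 of 9 cases on rhesus and 7 of 12 on human arrays. MYH11, the smooth muscle myosin, read 12.03 and 12.07 in testis and 4.67 on both rhesus thymus arrays (-7.38, SE 0.188), and differed by -5.62 (SE 0.237) on human arrays. MYL9, its light chain, differed by -5.08 and -3.89 and CALD1, an actin-binding regulator, by -3.58 and -3.30. Matrix genes ran the same way, with 7 of 9 and 7 of 12 of the fibroblast list higher in testis. COL1A2, a chain of type I collagen, differed by -3.76 and -3.88, or 13.5-fold and 14.7-fold, while FN1, fibronectin, was higher in thymus at 1.46 on both.

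Outside the lists, the gene with the largest testis difference on both array types was PLA2G1B, a secreted phospholipase known from pancreatic juice. It read 11.69 and 11.58 in testis and 2.19 and 2.20 in thymus on rhesus arrays, and 11.78 and 11.63 against 2.60 and 2.50 on human arrays. The differences were -9.45 (SE 0.0429) and -9.16 (SE 0.0556). Its level in pancreas was 15.37 and 15.40. Of 9 other pancreatic enzyme and hormone genes, picked after this value was seen, limma called 0 (at an unadjusted p below 0.05, 3 on rhesus arrays and 0 on human arrays), and they read 2.03 to 3.17 in testis on rhesus and 2.27 to 3.86 on human arrays, against at least 11.18 in pancreas on either array type. TKTL1, a transketolase relative, differed by -8.87 and -6.51, the adaptor GRB14 by -8.34 and -8.01, LHX9, a factor of the early gonad, by -6.98 and -6.55, and CITED1, a transcriptional co-factor, by -7.01 and -6.81. Among genes higher in thymus, ADA, adenosine deaminase, whose loss causes severe combined immunodeficiency, read 12.40 and 12.35 against 5.87 and 5.70 on rhesus arrays (6.59, SE 0.157) and differed by 7.25 (SE 0.0741) on human arrays. RHOH, a blood cell GTPase, differed by 6.53 and 6.61, CORO1A, an actin regulator of lymphocytes, by 5.88 and 6.58, DPP4, a surface peptidase of T cells, by 5.87 and 5.94, and S100A8, a calcium-binding protein of neutrophils and monocytes, by 6.26 and 6.51.

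Although both organs hold dividing cells, cell division genes were mostly higher in thymus. Of 132 genes measured on rhesus arrays 96 (72.7%, against 12.9% of all genes) were higher in thymus and 3 higher in testis, and of 172 on human arrays 105 (61.0%, against 6.94%) and 4. Of the 130 on both, 76 were higher in thymus on both and 0 higher in testis on both. The median difference was 1.89 and 1.67. MKI67, the antigen of cycling cells, read 10.80 and 10.79 in thymus and 5.80 and 5.65 in testis on rhesus arrays (5.07, SE 0.0856, 33.6-fold), and 9.94 and 9.88 against 6.12 and 6.13 on human arrays (3.79, SE 0.0310, 13.8-fold). All 3 rhesus probe sets of MKI67 were called higher in thymus, while on human arrays 1 of 4 was and 3 were not called. Testis was not without cell division transcripts. Over the genes called higher in thymus, the median level in testis was 6.59 on rhesus and 5.53 on human arrays, between thymus (9.27 and 8.37) and cortex (4.25 and 3.41) or pancreas (4.52 and 3.57). The cultured fibroblasts read 7.69 and 6.69. Testis lay above both cortex and pancreas for 67 of these 96 genes on rhesus and 80 of 105 on human arrays. Thymus was the highest of all 5 sources for 87 and 96, but these genes were picked for reading higher in thymus than in testis. Of 132 division genes on rhesus arrays, 50 were called higher in testis than in the mean of the other 3 sources and 9 lower. On human arrays 41 of 172 were higher and 9 lower, while 18.8% and 10.5% of all genes were higher. The part of the thymocyte transcripts in these testis levels was not tested.

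**Figure D4:**
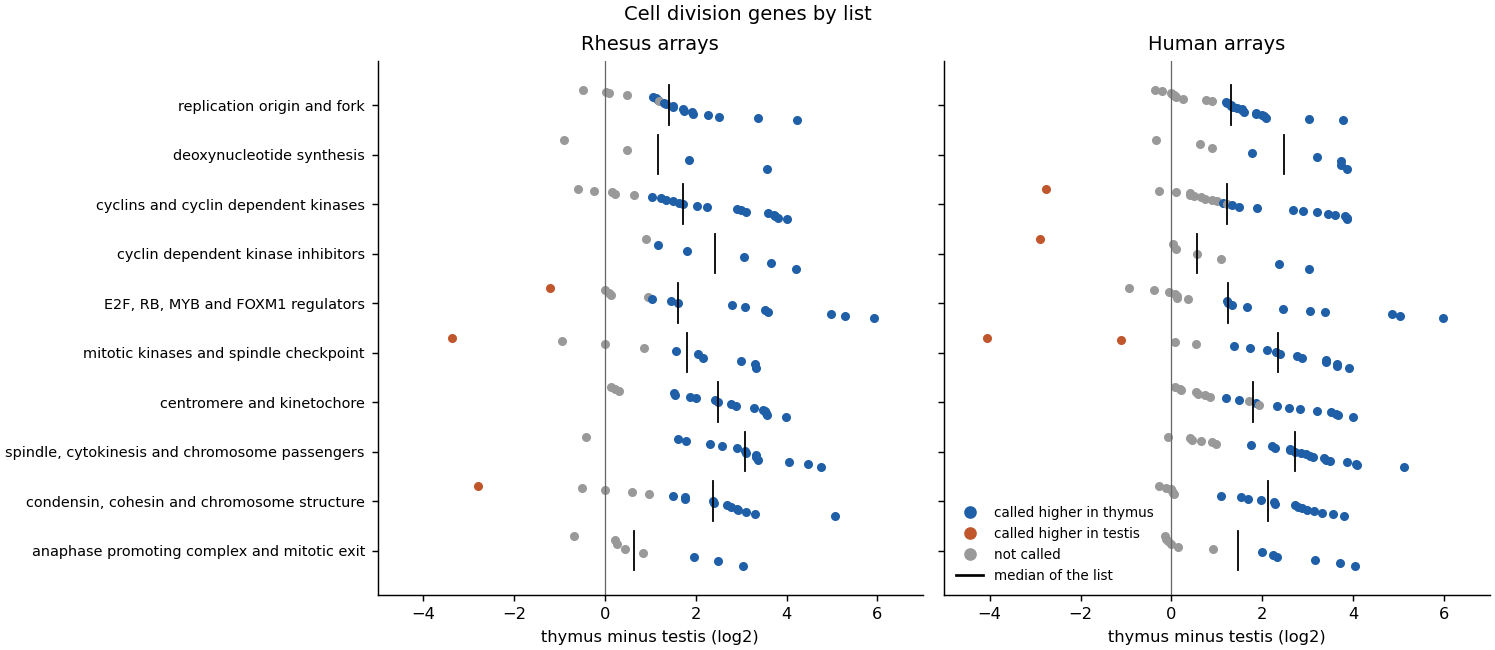
Thymus minus testis difference (log2, x axis) of each cell division gene by list (y axis), rhesus arrays left and human arrays right, coloured by its call, with a bar at the median of each list. Nearly all called genes lie to the right of 0, and medians run from 0.64 to 3.10 on rhesus and from 0.56 to 2.72 on human arrays.

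The E2F factors, which switch genes for DNA synthesis on or off, held the largest difference of the programme on each array type, E2F2 on rhesus and E2F7 on human arrays. E2F2, an activator, read 10.28 and 10.29 in thymus and 4.18 and 4.55 in testis on rhesus arrays, and 8.78 and 8.95 against 3.75 and 3.91 on human arrays. Its differences were 5.92 (SE 0.112) and 5.03 (SE 0.0690), or 60.5-fold and 32.7-fold. E2F7 and E2F8, the repressors that turn the programme off again, differed by 4.97 and 5.97 and by 5.28 and 4.86, and the activator E2F3 by 3.08 and 3.05. E2F1, the founding activator, was not called (0.10 and -0.05), nor were E2F4 (0.13 on both) and the pocket protein RB1 (0.01 and 0.12). E2F5, a repressor of resting cells, was called higher in testis on rhesus arrays at -1.20 (SE 0.0413) and read -0.93 (limma adjusted p = 0.0565) on human arrays. FOXM1, the factor of mitotic genes, differed by 3.60 and 2.45 and MYBL2, its partner, by 2.80 and 1.34.

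The D cyclins, which take cells out of rest, separated by member. CCND3, which developing T cells need in order to expand, read 11.38 and 11.39 in thymus and 7.71 and 7.60 in testis on rhesus arrays (3.73, SE 0.0545, 13.3-fold), and 10.88 and 10.63 against 7.56 and 7.57 on human arrays (3.20, SE 0.193, 9.16-fold). CCND2, on human arrays alone, was the reverse, at 7.35 and 7.61 in thymus and 10.23 and 10.24 in testis (-2.76, SE 0.0755). This rested on its brightest probe set, since the other 3 read between 1.96 and 3.73 in both organs. CCND1 differed by -0.24 and -0.28 and was not called. Of the kinases that D cyclins activate, CDK6 differed by 3.00 and 2.67, while CDK4 read 8.33 and 8.46 in thymus and 8.29 and 8.20 in testis on rhesus arrays, a difference of 0.15 (limma adjusted p = 0.178), and 0.40 (limma adjusted p = 0.116) on human arrays. Several cyclins of later phases were higher in thymus on both array types: CCNE2, of the start of replication, by 4.02 and 3.81, CCNA2 by 2.90 and 3.60, CCNB1, of mitosis, by 3.74 and 3.86, and CCNB2 by 3.80 and 3.45. CCNE1 differed by 2.24 on rhesus arrays and was not called on human arrays at 0.40, and CCNF, at -0.58 and 0.74, was called on neither by its brightest probe set, while its other 2 rhesus probe sets were called higher in thymus at 4.30 and 1.96. CDK1, the mitotic kinase, differed by 3.59 (SE 0.0782) and 3.86 (SE 0.0215).

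Inhibitors of these kinases also separated by member. CDKN2C, an inhibitor of CDK4 and CDK6, read 10.92 and 10.95 in thymus and 6.70 and 6.75 in testis on rhesus arrays (4.21, SE 0.0772, 18.5-fold). Its relative CDKN2D differed by 3.66 (SE 0.143) and, with testis arrays that read 3.35 and 4.36, by 2.37 (SE 0.315) on human arrays. CDKN1C, an inhibitor of growth, was higher in testis on human arrays, at 6.58 and 6.56 against 3.75 and 3.61 in thymus (-2.89, SE 0.102). CDKN1B was not called on either, at 0.90 and 1.09. Of the whole inhibitor list 5 of 6 were higher in thymus (83.3%, against 12.9% of all genes) and 0 in testis on rhesus arrays. On human arrays 2 of 7 were higher in thymus (28.6%, against 6.94%) and 1 in testis (14.3%, against 8.82%). CDKN3, a phosphatase that acts on these kinases, differed by 3.06 and 3.03, CDKN1A, a target of p53, by 1.81 and, uncalled, 0.56, and CDKN2A by 1.17 and, uncalled, 0.03.

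Of the genes of replication origins and forks, 15 of 20 were higher in thymus on rhesus and 16 of 26 on human arrays. The median difference of this list was 1.42 and 1.31, and that of the spindle and cytokinesis list 3.10 and 2.72. The MCM helicase subunits differed by 1.31 and 1.35 (MCM4), 1.34 and 1.56 (MCM5) and 1.94 and 0.75 (MCM3, not called on human arrays). MCM2 differed by 1.20 on rhesus arrays, where its SE of 0.523 left it uncalled, and by 1.30 on human arrays. The rhesus call of MCM4 and the human call of MCM2 were lost without any 1 of the 4 arrays compared, at differences of 1.25 to 1.38 and 1.25 to 1.34. MCM10, which starts the helicase, stood apart from them at 4.24 (SE 0.178) and 3.77 (SE 0.331). PCNA, the sliding clamp, differed by 1.74 and 1.86. In nucleotide synthesis TYMS, which makes thymidylate, differed by 3.57 and 3.74 and RRM1, of ribonucleotide reductase, by 1.85 and 1.77, while DUT, at -0.90 and 0.89, was not called.

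Of the spindle and cytokinesis list 13 of 14 were higher in thymus on rhesus and 17 of 23 on human arrays, with ASPM, a spindle pole protein, at 4.47 and 5.11, KIF4A, a chromosome motor, at 4.75 and 3.36 and CDCA8, a chromosome passenger, at 4.05 and 3.40. Of the kinetochore list 14 of 17 and 11 of 20 were higher in thymus, led by NUF2, which holds microtubules, at 3.99 and 4.00. ZWINT, of the same structure, differed by 3.52 on rhesus arrays and was not called on human arrays, where its thymus arrays read 4.22 and 6.71. Of the kinase and checkpoint list 6 of 10 and 12 of 16 were higher in thymus, with MAD2L1 at 2.99 and 3.40. BUB3, its checkpoint partner, was called in opposite directions. Its rhesus probe set read 5.80 and 5.89 in thymus and 9.21 on both testis arrays (-3.36), and its brightest human probe set 12.08 and 11.97 against 10.33 and 10.26 (1.73), as did 3 of its other 5 human probe sets. PLK2, a polo-like kinase, read -4.06 on human arrays and 0.86, not called, by the brightest of 6 rhesus probe sets, of which 2 were called higher in testis at -3.36 and -2.29. MAD1L1 was called higher in testis on human arrays at -1.11 and read -0.95 on rhesus arrays, and the human call was lost without thymus replicate 3 (-0.85) or testis replicate 3 (-0.78).

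Among chromosome proteins, 12 of 17 were higher in thymus on rhesus and 14 of 20 on human arrays. The condensins SMC2 (2.92 and 3.14), SMC4 (2.69 and 2.79) and NCAPG (2.78 and 2.88) and the topoisomerase TOP2A (3.30 and 3.56) were higher in thymus. Cohesin, the ring that holds sister chromatids, was not uniform, since SMC3 (0.00 and -0.02) and RAD21 (-0.51 and -0.13) were not called while SMC1A differed by 1.76 and 2.26. STAG1, a cohesin subunit, was called higher in testis by its single rhesus probe set at -2.78, which read 2.40 on both thymus arrays, and differed by -0.28 on human arrays, not called. Of the genes of mitotic exit 3 of 8 (37.5%, against 12.9% of all genes) and 6 of 12 (50%, against 6.94%) were higher in thymus. Regulators such as PTTG1, securin (3.05 and 3.15), FBXO5 (2.48 and 2.32) and CDC20 (4.03, human arrays) were called, while subunits of the anaphase promoting complex such as CDC16 (0.44 and -0.14) and ANAPC10 (-0.68 and -0.11) were not.

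Genes that repair or check replicating DNA were higher in thymus in 12 of 14 cases on rhesus and 8 of 14 on human arrays, with 0 higher in testis. CHEK1, the checkpoint kinase, read 7.17 and 7.23 in thymus and 3.89 and 4.29 in testis on rhesus arrays (3.12, SE 0.152) and differed by 3.02 (SE 0.124) on human arrays. RAD54L, a recombination motor, differed by 4.15 and 2.62 and BRCA1 by 1.41 and 1.80. Of the cell death list 7 of 13 (53.8%, against 12.9% of all genes) and 6 of 14 (42.9%, against 6.94%) were higher in thymus. On rhesus arrays 1 (7.69%, against 16.7%) was higher in testis, and on human arrays 0. Those higher in thymus included the death-promoting BCL2L11, which encodes BIM and removes self-reactive thymocytes, at 3.00 and 2.84 and the protective BCL2L1 at 2.57 and 3.29. BCL2 itself was not called (0.01 and -0.73).

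Several families had 1 member higher in each organ. AURKB, the aurora kinase of mitosis, read 9.10 and 9.15 in thymus and 5.67 and 5.94 in testis on rhesus arrays (3.33, SE 0.112), whereas AURKC, the aurora kinase of meiosis, read 2.47 and 2.53 against 4.97 and 4.82 (-2.39, SE 0.0602). On human arrays they differed by 2.29 and -2.06. The cohesin subunit STAG2 differed by 1.5 and 1.52 and the meiotic STAG3 by -1.97 and -1.5, and SMC1A by 1.76 and 2.26 and the meiotic SMC1B by -2.22 and, not called, -0.53. The nuclear lamins parted in the same manner: LMNB1 read 11.78 and 11.76 in thymus and 8.75 and 8.98 in testis on rhesus arrays (2.90, SE 0.146) and LMNA, the lamin of stiff differentiated nuclei, 5.42 and 5.46 against 8.76 and 8.98 (-3.43, SE 0.0810). On human arrays the lamins differed by 2.98 and -2.27. GATA3 and the gonadal GATA4 were the widest pair, at 8.05 and -6.98 on rhesus and 7.15 and -3.13 on human arrays. All rhesus probe sets of GATA3 and GATA4 were called in these directions. On human arrays 1 of 3 for GATA3, 1 of 5 for GATA4 and 1 of 4 for SMC1A were, and the others were not called. AURKB had 1 of 2 called on each array type, and LMNA 4 of 6 on rhesus and 3 of 6 on human arrays. Other pairs moved together or not at all, such as BCL11B with BCL11A (5.77 and 5.39 on rhesus arrays) and RAD21 with the meiotic REC8 (-0.51 and -0.74, not called).

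**Figure D5:**
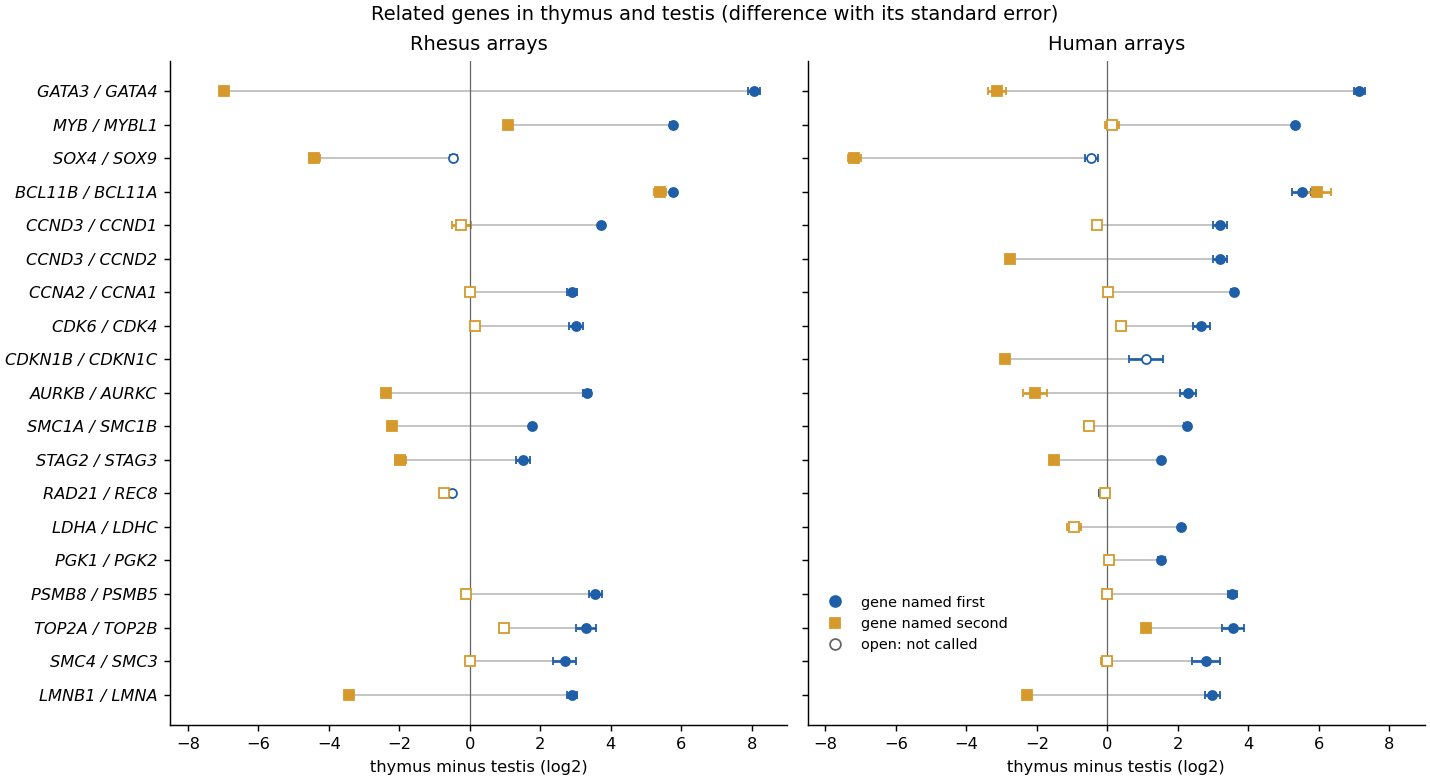
Thymus minus testis difference (log2, x axis) with its SE for pairs of related genes (y axis), rhesus arrays left and human arrays right, the gene named first as a circle and the second as a square, open where not called. GATA3 with GATA4, AURKB with AURKC, STAG2 with STAG3 and LMNB1 with LMNA lie on opposite sides of 0 on both array types.

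Differences tended to be smaller on human arrays. Among genes called the same way on both, the median size of the difference was 2.45 on rhesus and 2.00 on human arrays. In a fit of all 20 arrays, 2002 of 11956 shared genes (16.7%) had a difference that itself differed between array types, and in 1636 of these (81.7%) it was smaller on human arrays. Of the shared genes, 1798 were called on rhesus arrays alone and 408 on human arrays alone, and these sets overlap with the 2002. In the programmes PTCRA, CD4 and WT1 were genes with a much smaller human value, and SOX9 and IKZF3 (3.23 and 6.0) with a larger one.

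Markers of other cells that either RNA could hold were read the same way. Of the endothelial genes 2 of 10 (20%, against 12.9% of all genes) were higher in thymus and 5 (50%, against 16.7%) higher in testis on rhesus arrays. Without testis replicate 1 the count of 5 was 3, as it was under quantile normalization. On human arrays 2 of 11 (18.2%, against 6.94%) were higher in thymus and 0 higher in testis. PECAM1, also made by blood cells, differed by 4.10 and 3.72. On rhesus arrays 2 of 5 fat cell genes were higher in thymus (40%, against 12.9% of all genes) and 1 in testis (20%, against 16.7%). On human arrays 2 of 8 were higher in thymus (25%, against 6.94%) and 0 in testis. That human count rested in part on LPL, whose difference ran from 0.96 to 1.58 with 1 array left out. FABP4, a fatty acid carrier of fat cells and capillaries, was higher in thymus by 4.47 and 4.67. LEP, the hormone leptin, was called at 1.34 on rhesus arrays and read 0.03 on human arrays. LPL, a lipase of fat and muscle, was called in opposite directions, at -1.08 and 1.27, and its 4 rhesus probe sets were themselves divided. ADIPOQ, which marks fat cells, was not called (0.33 and 0.03), nor was PLIN1 on human arrays (0.01). On rhesus arrays ADIPOQ read 7.31 to 8.83 and LEP 5.42 to 7.62 over all 5 sources, cortex and fibroblasts included. This limits what these 2 rhesus values can show of fat cells. Red blood cell genes were not called on either array type, with HBB at 0.22 and 0.46, so 0 of 3 and 0 of 5 passed. Of the housekeeping genes ACTB (0.51 and 0.48) and RPS18 (-0.06 and -0.08) were not called, but HPRT1, of purine salvage, read 9.77 and 9.82 in thymus and 11.97 and 11.99 in testis on rhesus arrays (-2.18, SE 0.0423), and -2.15 (SE 0.0804) on human arrays. LDHA, of glycolysis, differed by 2.45 and 2.08.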

How the data were processed

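Total RNA from 5 macaque sources was hybridized to 10 rhesus and 10 human Affymetrix arrays, 2 per source and type. Each array type had 1 deposited table of log2 values, 1 for each probe set and array, ranging from 0.76 to 15.9 (rhesus) and from 0.73 to 15.9 (human). The submitters' processing notes name RMA, with its version and the joint handling of arrays not given in the sources used here. Probe-level values used in the paper were another set. Tables were fitted separately, and a level set across them is only a description. Sources came from the labels.

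Gene symbols were those of the platform annotation. Among 52766 rhesus probe sets that are not controls, 24956 had 1 symbol, 361 several and 27449 none, and of 54613 human ones 41091, 1801 and 11721. By gene number 24616 of the 24956 were found in a rhesus gene table, and 0 changed symbol. Gene identities of human probe sets were kept as annotated.

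Differences were taken from limma 3.58.1 under R 4.3.3, by lmFit and eBayes, over 10 arrays with source as the factor, with Benjamini-Hochberg adjustment over probe sets. The gap between array types was a contrast in a fit of 20 arrays, in which a shift shared by all arrays of a table drops out, though other effects of separate normalization remain. The members, 35 gene lists and 21 related pairs were chosen with earlier results of these data known. Named genes are list and pair members, the 15 with the largest difference called on both types in each direction, and 5 of each kind of disagreement between types. The replicate numbers do not pair the samples.

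Simulated data made from these arrays had 100 probe sets changed by 1.5 and 100 by 3, with all others equal in thymus and testis. Of those changed by 1.5, 78 were returned on rhesus and 83 on human arrays. Of those changed by 3, 93 and 94 were returned, with 0 wrong signs. Among the unchanged probe sets 2 and 1 were called. Far more probe sets differed in the real data, so these rates do not carry over to the reported counts. The alternatives were other scalings, a filter on dim probe sets, other minimum differences, only the 4 arrays compared, other tests, a replicate block, other ways to read a gene and each array left out. The number of arrays limits the precision. No genome or sequences were used here.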

Additional observations from a re-analysis of the deposited data

Results flagged for a closer look

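The difference between thymus and testis itself differed between the rhesus and the human arrays for 2002 of 11956 shared genes in the limma fit of all 20 arrays, and the genes below had the largest such gaps of their kind. In each case the gap is the human minus the rhesus value of thymus minus testis.

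Of the genes called in opposite directions, LYAR, a nucleolar factor, had a gap of 9.49 (SE 0.203), with 5.85 in thymus and 12.71 in testis on rhesus arrays and 8.26 and 5.63 on human arrays. Its 6 rhesus probe sets were themselves divided, with 2 called higher in thymus (2.75 and 3.36) and 4 higher in testis. LY75, an uptake receptor of dendritic and thymic epithelial cells, had a gap of 7.62 (SE 0.154), from -2.43 on the rhesus to 5.19 on human arrays, and its other rhesus probe set read 4.76. ENO2, the neuronal enolase, had a gap of 6.85 (SE 0.137), from -1.53 to 5.32. ADAM18, a sperm surface protein, had a gap of -7.62 (SE 0.206), from 1.09 to -6.53. SERPINA5, a protease inhibitor, had a gap of -7.24 (SE 0.189), from 2.12 to -5.12. ADAM18 and SERPINA5 also had rhesus probe sets called both ways. ENO2 had 1 single-symbol probe set on each array type. Its rhesus probe set read 8.01 in cortex, 12.31 in fibroblasts and 10.94 in pancreas. For the other genes the part of the choice of probe set in these gaps was not tested.

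Of the genes called on 1 array type alone, PAPPA2, a growth factor protease, had a gap of 7.52 (SE 0.241), RTN4R, a receptor of nerve cells, of 7.40 (SE 0.237), SLC25A17, a peroxisomal carrier, of 7.39 and CYP17A1 of 6.99 (SE 0.0924). These 4 were higher in testis on rhesus arrays by 6.95 to 7.36 on the log2 scale, and their brightest human probe sets read 2.88 to 3.72 in both organs. Among rhesus probe sets, 1 of 5 of PAPPA2 and 2 of 4 of RTN4R were called higher in testis. For SLC25A17 and CYP17A1 these were 2 of 3 and 1 of 2, and the others of these 4 genes were not called. DTX1, a target of Notch signalling in T cells, had a gap of -7.26 (SE 0.472), with 10.09 in thymus and 3.26 in testis on rhesus arrays and 3.95 and 4.38 on human arrays. The other rhesus probe set of DTX1 was called higher in testis at -2.02.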

How the results depend on the processing

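Each alternative changed 1 choice, and the cause of a change was not tested unless fewer genes or arrays entered by construction. For the named genes, 6979 of 7239 values kept their direction and call, 116 lost the call, 63 gained it and 81 changed sign, of which 5 were called in both directions. Quantile normalization left the counts over all genes and over the lymphoid, gonadal and division genes within 1.5 times of those reported, and moved 4 counts of single lists, from 5 to 3 (endothelial genes higher in testis, rhesus arrays) and from 2 to 1 (fat cell genes higher in thymus, and mitotic kinase and sperm genes higher in testis, human arrays). Subtracting the spiked controls raised the median difference by 0.176 on rhesus and 0.161 on human arrays, and the share of calls higher in thymus was then 51.1% and 52.2%, against 43.7% and 44.0% as reported. Signal over background limits the low genes: several named below, such as PRM1 and TNP2 on human arrays, were at the floor in both organs, where a sign carries no order.

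With no minimum difference 3550 genes were called higher in thymus and 3741 higher in testis on rhesus arrays, 2494 and 2664 on human arrays and 1500 and 1620 on both. With a minimum of 2 these counts were 837 and 1246, 594 and 867, and 361 and 503, and 864 genes differed between array types. Without dim probe sets 708 genes differed between array types. Gonadal genes higher in thymus numbered 7 and 4 with no minimum and 1 and 0 with a minimum of 2 on rhesus and human arrays, and 2 on rhesus arrays by the mean of all probe sets. Lymphoid genes higher in testis on rhesus arrays numbered 2 with no minimum, 0 with a minimum of 2, 2 by the mean of all probe sets and 2 by the probe set brightest on the thymus and testis arrays. On human arrays they numbered 0 with a minimum of 2 and 1 without dim probe sets. Division genes on rhesus arrays numbered 9 higher in testis with no minimum and 63 higher in thymus with a minimum of 2.

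With 1 array left out, when the lone array of a source is assumed to vary like the others, genes higher in thymus and in testis ranged from 1727 to 1784 and from 2275 to 2316 on rhesus arrays, from 1233 to 1321 and from 1596 to 1682 on human arrays, and from 745 to 804 and from 974 to 1053 on both, and 1911 to 1962 differed between array types. The replicate numbers do not pair the samples, with same-number deviations that correlated at 0.00891 and 0.0141 on the 2 array types. With the replicate block 1818 and 2346 genes were called on rhesus and 1349 and 1718 on human arrays, and MAD1L1 and LPL lost their human calls.

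Signs turned as follows on rhesus arrays. Under quantile normalization NHEJ1 read 0.14 and RB1 -0.06. With array medians subtracted NHEJ1 read 0.01 and SMC3 0.02. With spiked controls subtracted CD1E read 0.15, NHEJ1 0.16, PSMB5 0.06, RPS18 0.12, SMC3 0.17, SOX10 0.08 and SPO11 0.12. By the mean of all probe sets ADAM18 read -0.24, CCL21 -0.74, CCNF 1.89, CD1E 4.16, DCLRE1C -1.48, LAT 1.14, LPL 1.74, LY75 1.17, PLK2 -0.45, SERPINA5 -3.46 and SMC3 0.14. By the probe set brightest on the 4 arrays CCL21 read -1.76, CDC16 -0.04 and LY75 4.76. With 1 array left out BCL2 ranged from -0.34 to 0.35, CCND1 from -0.57 to 0.10, NHEJ1 from -0.15 to 0.11, RB1 from -0.03 to 0.05, SMC3 from -0.05 to 0.04, CD1E from -0.07 to 0.01, SPO11 from -0.13 to 0.01, ZBTB7B from -0.02 to 0.09 and SOX10 from -0.21 to 0.02.

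Signs turned as follows on human arrays. Under quantile normalization CD22 read 0.07, E2F1 0.02 and MEI1, PLIN1, PRM1, S100B and TNP2 0.00. With array medians subtracted ACR, LHCGR, S100B and TNP2 read 0.00 and MEI1, ODF1, PLIN1 and PRM1 -0.01. With spiked controls subtracted ANAPC10 read 0.05, CD22 0.15, CDC16 0.02, DAZL 0.12, E2F1 0.11, PSMB5 0.16, RAD21 0.03, REC8 0.11, RPS18 0.08 and SMC3 0.14. By the mean of all probe sets CYP17A1 read -2.89, MALT1 0.00, SMC3 0.10 and STAG1 0.16, and by the probe set brightest on the 4 arrays CYP17A1 read -5.83. With 1 array left out PSMB5 ranged from -0.07 to 0.06, CD22 from -0.02 to 0.00, TNP2 from -0.01 to 0.04, E2F1 from -0.13 to 0.03, TNP1 from -0.05 to 0.11, XRCC4 from -0.01 to 0.12, DAZL from -0.14 to 0.05, MYBL1 from -0.06 to 0.32, REC8 from -0.11 to 0.00 and SMC3 from -0.09 to 0.04.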

Other observations

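Gene families that share the start of their symbol were read after the data had been seen, over families with at least 10 genes on both array types, and their counts are given with no test. Of all genes on both array types, 6.83% were higher in thymus on both and 8.89% higher in testis on both. Collagens were the most one-sided of those examined, with 15 of 35 higher in testis on both array types and 0 higher in thymus, and medians of -1.42 on rhesus and -1.39 on human arrays. The network collagens of basement membranes COL4A5 (-5.97 and -6.18) and COL4A6 (-6.96 and -5.91) had the largest differences of these, and the cartilage collagen COL2A1 differed by -3.89 and -3.14. The SOX factors had 5 of 15 higher in testis, among them SOX6 (-3.46 and -2.33) and SOX30, a spermatid factor (-2.43 and -2.22). On rhesus arrays SOX30 read 9.54 in testis but also 9.61 in cortex and 9.42 in pancreas. SOX2, a stem cell factor, was the member higher in thymus (3.96 and 3.40). The KLF factors were split, with KLF13, of T cells, higher in thymus by 3.11 and 3.09 and KLF3 higher in testis by 2.54 and 2.41, and KLF2, which mature T cells switch on before they leave the thymus, also higher in testis (-1.53 and -1.71). Of the vesicle-tethering TRAPPC subunits 4 of 11 were higher in thymus, by 1.03 to 1.98.

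Several genes known from neurons were among those with the largest testis differences. NEFH, the heavy neurofilament chain, read 9.49 in testis and 2.46 in thymus on rhesus arrays (-7.03, SE 0.0602) and differed by -7.04 (SE 0.0721) on human arrays. ELAVL2, a neuronal and germ cell RNA-binding protein, differed by -6.52 and -7.65 and REEP1, a membrane-shaping protein, by -8.13 and -6.98. The Schwann cell genes S100B, SOX10 and CDH19 were not called on either array type, with values from -0.96 to 0.12. NEFL, the light neurofilament chain, was the reverse on human arrays, at 7.49 and 7.85 in thymus and 4.34 and 4.27 in testis (3.36, SE 0.113). ARPP21, a phosphoprotein of neurons and thymocytes, was higher in thymus by 5.93 and 5.74.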
